A study of Mus musculus with 41 samples.

Results

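The 36 genes described here are Myc and 35 genes that build ribosomes, taken by symbol from a fixed list of names and read across every group of the series. All 36 were found among the 48795 genes of the deposited table, and all 36 passed the filter on low counts. The first cohort had 15701 genes tested and the second 15543. Beside the growth regulator Myc there were 4 genes of RNA polymerase I, 3 of the box C/D and 4 of the box H/ACA nucleolar particles. The others were 11 genes of small subunit and 9 of large subunit assembly, and 4 nucleolar proteins with several tasks. The question was whether removal of the opposite kidney brought a growth signal of this kind to the injured kidney that was left alone.

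Whole-kidney pole sections of mice were profiled after unilateral ischemia-reperfusion injury (UIRI) of the left kidney, whose blood supply is closed and reopened. The first cohort were male mice aged 8 to 10 weeks, with 21 minutes of ischemia at 34 °C. Its UIRI+Nx d7 kidneys (n = 6) came from mice that lost the opposite kidney by nephrectomy (Nx) on day 3 and were killed on day 7. UIRI d7 kidneys (n = 6) came from the same schedule with a sham nephrectomy per the series' design text. UIRI d3 kidneys (n = 6) were taken on day 3, and Control kidneys (n = 6) had no UIRI. The second cohort held WT_IRNxd7 (n = 4), WT_IRd7 (n = 6) and WT_IRd3 (n = 6) kidneys, tagged UIRI+Nx on day 7, UIRI on day 7 and UIRI on day 3, and it had no Control group. Its titles begin with WT, the usual short form of wild type, and the titles of the first cohort name no genotype. The strain is not stated, and for the second cohort neither are age, sex, ischemia time and the day of nephrectomy. Nothing in the labels of the second cohort says that its libraries came from separate animals, so its p-values measure the spread between these libraries. Because sections hold all cells of the kidney pole, fewer cells of a type and less RNA per cell cannot be told apart in any result below.

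Ribosomes are assembled in the nucleolus. RNA polymerase I copies the precursor of ribosomal RNA, and small nucleolar particles modify it (methylation by box C/D, pseudouridylation by box H/ACA). Separate sets of factors fold and cut the parts of the small and large subunit. Myc is a transcription factor that binds DNA together with Max and raises the transcription of many of these genes. The set is often read as a measure of cell growth. When a kidney is removed the remaining one enlarges, mainly by growth of its tubule cells, which is known to involve more ribosomal RNA and protein synthesis. In injured tubules the same genes are also used by cells that divide.

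Total counts ran from 5090418 to 33362940 per library and did not separate nephrectomy from its sham or non-nephrectomy group (two-sided exact permutation p = 0.911 for the first cohort and 1 for the second). The share of mitochondrial transcripts was 4.62 ± 0.896% in UIRI+Nx d7 and 2.77 ± 0.577% in UIRI d7 (n = 6 each, exact permutation p = 0.00649, adjusted p = 0.026 over 4 tests). It was 3.95 ± 1.0004% in WT_IRNxd7 and 2.82 ± 0.398% in WT_IRd7 (n = 4 and 6, exact p = 0.0286, adjusted p = 0.0572). Its part in the results was not tested. By their markers the sections were kidney. Summed over 10 proximal tubule genes, the level was 2784 to 6051 CPM in UIRI+Nx d7, 2992 to 3861 CPM in UIRI d7, 4333 to 5525 CPM in UIRI d3 and 10868 to 13584 CPM in Control, where CPM is counts per 1000000 of a library size scaled by edgeR's TMM method. Replicate 4 of UIRI d7 stood apart for the genes of this set, as described at the end.

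The E-boxes of the set are shown because the letters CACGTG are those bound by Myc with Max, and by other factors of the same class. RefSeq promoter windows (build GRCm38.p6, from 250 bases before to 50 bases after the gene start) were available for 30 of the 36 genes. The letters CACGTG, which read the same on both strands, stood in a window of 7 of the 30 genes (23.3%), against 2187 of all 27025 genes with a window (8.09%). A gene with several windows was counted if any of them held the letters. No window was available for Myc, Fbl, Rrp12, Bop1, Rrs1 and Npm1. For the 7 genes, 30 bases around the motif are given here, 5′ to 3′ on the gene's own strand, with the motif in capitals. A match is a description of the letters and not a bound site.
Nop2 (chr6:125131811-125131840, plus strand, motif starting 60 bases before the gene start): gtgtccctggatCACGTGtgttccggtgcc
Pes1 (chr11:3963965-3963994, plus strand, motif at base 3 from the start): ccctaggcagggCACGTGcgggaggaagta
Wdr43 (chr17:71616220-71616249, plus strand, motif at base 18 from the start): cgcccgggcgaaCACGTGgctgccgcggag
Tsr1 (chr11:74898092-74898121, plus strand, motif at base 25 from the start): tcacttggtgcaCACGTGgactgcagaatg
Ltv1 (chr10:13193092-13193121, minus strand, motif at base 29 from the start): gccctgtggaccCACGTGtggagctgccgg
Utp20 (chr10:88826765-88826794, minus strand, motif at base 38 from the start): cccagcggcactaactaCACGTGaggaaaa
Mybbp1a (chr11:72441347-72441376, plus strand, motif at base 41 from the start): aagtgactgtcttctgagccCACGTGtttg

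Removal of the opposite kidney was compared with its sham first, UIRI+Nx d7 against UIRI d7. None of the 36 genes passed the test in either direction (edgeR's quasi-likelihood test with Benjamini-Hochberg adjustment over all genes tested, threshold 0.05), where 6.62% of all genes tested did, 3.17% higher and 3.46% lower. At an unadjusted p under 0.05 there were 4 genes, Noc2l, Ppan, Bysl and Dkc1, each lower in UIRI+Nx d7, against 20.5% of all genes. DESeq2's Wald test called 1 gene, Noc2l, also lower. The median log2 fold change of the 36 was -0.09, beside -0.01 over all genes, with 11 values above 0 and 25 below. For no gene did the 6 UIRI+Nx d7 libraries lie wholly above or below the 6 UIRI d7 libraries, where 1.56% of all genes lay wholly above and 1.45% wholly below. The 95% interval of the fold change stayed under a 2-fold rise for all 36 genes, and within 2-fold in both directions for 32, the others being Myc, Dkc1, Gar1 and Heatr1. It stayed under a 1.5-fold rise for 29 of the 36. Within the single block of libraries, by the numbers in the column names, that held several of both groups (3 of each), none was called either, and the median was -0.27. With so few libraries, the lack of calls in that block was not read as a lack of effect.

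Noc2l, which carries precursors of the large subunit and is also known as an inhibitor of histone acetylation, came closest to the threshold. Its lowest, median and highest values were 21.4, 28.8 and 38.5 CPM in UIRI+Nx d7, against 32.2, 44.5 and 55 CPM in UIRI d7. The groups overlapped, with 4 of 6 UIRI+Nx d7 libraries below every UIRI d7 library. The means were 29.9 ± 6.92 CPM in UIRI+Nx d7 and 43 ± 9.2 CPM in UIRI d7 (SD, n = 6 each), with a log2 fold change of -0.52 (SE 0.17, edgeR adjusted p = 0.0613). DESeq2 gave an adjusted p of 0.035. The edgeR call was also gained without replicate 1 of UIRI d7 (adjusted p = 0.0368), replicate 2 of UIRI d7 (0.0478) or replicate 4 of UIRI+Nx d7 (0.0398). The adjusted p was 0.11 without replicate 4 of UIRI d7. In the second cohort its values were 44, 46.1, 42.6 and 38.8 CPM in the 4 WT_IRNxd7 libraries, against 30.2, 42.8 and 48.6 CPM in WT_IRd7. The log2 fold change was 0.06 (SE 0.14, edgeR adjusted p = 0.86).

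Ppan, another large subunit factor, had 17, 18.4 and 22.3 CPM in UIRI+Nx d7, against 19.3, 24.9 and 29.1 CPM in UIRI d7. The log2 fold change was -0.36 (SE 0.15, edgeR adjusted p = 0.154). Among the WT libraries it had 13.1, 23, 24.6 and 25.7 CPM in WT_IRNxd7, against 22.1, 25.6 and 32 CPM in WT_IRd7, with a log2 fold change of -0.29 (edgeR adjusted p = 0.412). Replicate 1 of WT_IRNxd7 was the lowest of all 16 libraries. Ppan thus had a negative estimate in both cohorts and passed the test in neither. Bysl, which releases late precursors of the small subunit, had 12.1, 15.4 and 20.4 CPM in UIRI+Nx d7, against 14.8, 20.1 and 29.7 CPM in UIRI d7. For Bysl the log2 fold change was -0.38 (SE 0.18, edgeR adjusted p = 0.218). Its values were 18.5, 21.6, 18.8 and 23.1 CPM in WT_IRNxd7, against 18.2, 19.7 and 28.5 CPM in WT_IRd7, with a log2 fold change of -0.03 (edgeR adjusted p = 0.953). Dkc1 encodes dyskerin, the pseudouridine synthase of the box H/ACA particles and a part of telomerase. It had 39.2, 82.1 and 96.9 CPM in UIRI+Nx d7, against 64.3, 102 and 322 CPM in UIRI d7. The log2 fold change of Dkc1 was -0.77 (SE 0.37, edgeR adjusted p = 0.241), and the highest UIRI d7 value was that of replicate 4. Without that library the fold change was -0.29. Dkc1 in the WT libraries had 99.4, 120.4, 96.4 and 124 CPM in WT_IRNxd7, against 75.6, 108 and 126 CPM in WT_IRd7, with a log2 fold change of 0.08 (edgeR adjusted p = 0.852).

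Polr1a and Polr1b, the large catalytic subunits of RNA polymerase I, and Heatr1, a scaffold of the early small subunit particle, followed in order of p. Polr1a had 14.3, 19.7 and 21.2 CPM in UIRI+Nx d7, against 19.6, 21.8 and 28 CPM in UIRI d7. The log2 fold change of Polr1a was -0.24 (SE 0.14, edgeR adjusted p = 0.338). Its second-cohort values were 23.6, 26.5, 19.4 and 27.6 CPM in WT_IRNxd7, against 20.5, 23.3 and 25.6 CPM in WT_IRd7 (0.07 on the log2 scale). Polr1b had 8.89, 12.4 and 16.4 CPM in UIRI+Nx d7, against 11.7, 13.6 and 30.9 CPM in UIRI d7. For Polr1b the log2 fold change was -0.44 (SE 0.25, edgeR adjusted p = 0.319). The WT libraries gave 14.9, 20.3, 15.7 and 25.1 CPM in WT_IRNxd7, against 12.8, 20.2 and 24.7 CPM in WT_IRd7 (-0.02). Heatr1 had 1.55, 2.57 and 3.71 CPM in UIRI+Nx d7, against 1.64, 3.5 and 7.69 CPM in UIRI d7. For Heatr1 the log2 fold change was -0.58 (SE 0.33, edgeR adjusted p = 0.332). Heatr1 was at 3.22, 6.75, 1.92 and 4.12 CPM in WT_IRNxd7, against 1.6, 2.67 and 5.95 CPM in WT_IRd7 (0.17). The groups overlapped for each of these genes in both cohorts. The last 300 bases of Polr1b are at least 95% identical over 100 bases or more to 32 other genes of the annotation, so its counts may hold reads of other transcripts. The same holds for Fbl, Nop56, Nop58 and Wdr12. The ends of Noc2l, Bysl, Dkc1, Heatr1, Mybbp1a, Tsr1, Nop56, Nhp2 and Bop1 overlap a gene on the other strand. The strand setting of the counting is not stated, and if strand was ignored the reads of both genes cannot be told apart.

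**Figure D1:**
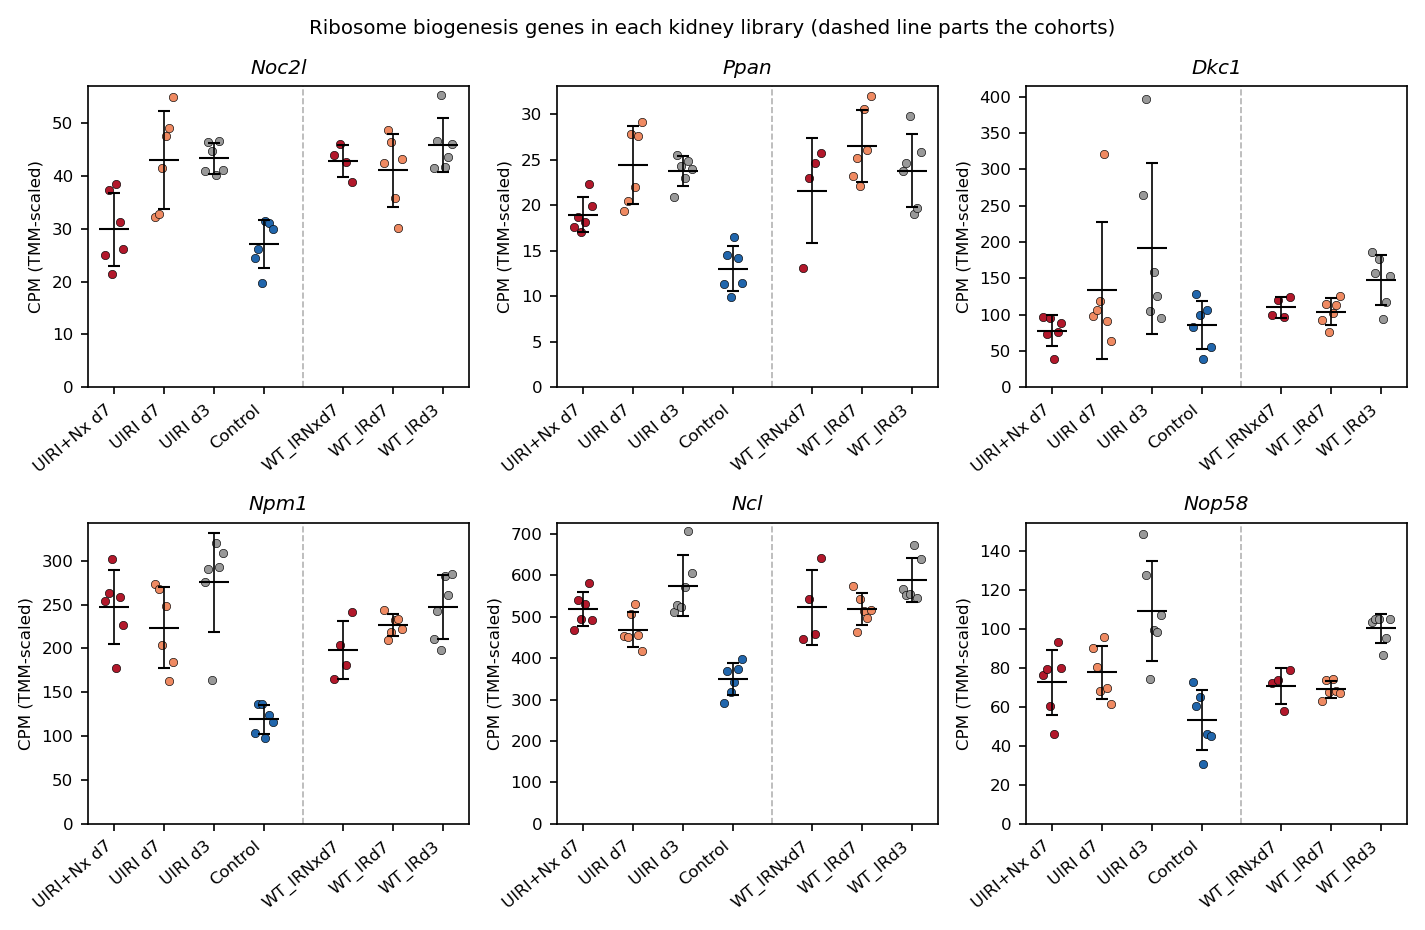
CPM (TMM-scaled, linear axis from 0) of Noc2l, Ppan, Dkc1, Npm1, Ncl and Nop58 in each library; points are libraries, the wide bar is the group mean and the whiskers are 1 SD, with the first cohort left and the second right of the dashed line. UIRI+Nx d7 and UIRI d7 overlap in every panel, and all 6 Control libraries of Ppan, Ncl and Npm1 lie below every injured library of the first cohort.

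The same comparison in the second cohort, WT_IRNxd7 against WT_IRd7, shares no library with the first. None of the 36 genes passed in either direction in edgeR, where 5.24% of all genes did, 2.58% higher and 2.66% lower, and none in DESeq2. At an unadjusted p under 0.05 there was 1 gene, Fbl, against 18.8% of all genes. The median log2 fold change was 0.02, with 19 values above 0 and 17 below, beside 0.00 over all genes. The 95% intervals lay within 2-fold in both directions for 34 of the 36, the others being Myc and Gar1. Their upper ends lay under a 1.5-fold rise for 32 of the 36. Within the 2 blocks that held both groups none was called (2 against 2 and 2 against 4 libraries). Fits of so few libraries have little power, so this lack of calls was not read as a lack of effect. For no gene were the groups free of overlap (3.03% of all genes lay wholly above and 3.02% wholly below). Fbl, the methyltransferase of the box C/D particles, had 11, 9.02, 10.1 and 9.86 CPM in WT_IRNxd7, against 10.5, 12.5 and 18.7 CPM in WT_IRd7 (log2 fold change -0.41, SE 0.16, edgeR adjusted p = 0.164). In the first cohort its log2 fold change was -0.07 (adjusted p = 0.917). The 36 estimates had the same sign in both cohorts for 16 genes, 5 positive and 11 negative (44.4%), beside 59.2% of the 15263 genes tested in both.

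A joint edgeR fit of all 40 grouped libraries tested whether the nephrectomy effect differed between the cohorts. None of the 36 genes passed, nor did any of the 16606 genes tested (0% of all genes), and DESeq2 called none of the 36. At an unadjusted p under 0.05 there was 1 of the 36 against 8.5% of all genes. It was Noc2l (difference 0.58, SE 0.22, adjusted p = 0.557). The joint fit sets libraries counted on different genome builds beside each other.

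**Figure D2:**
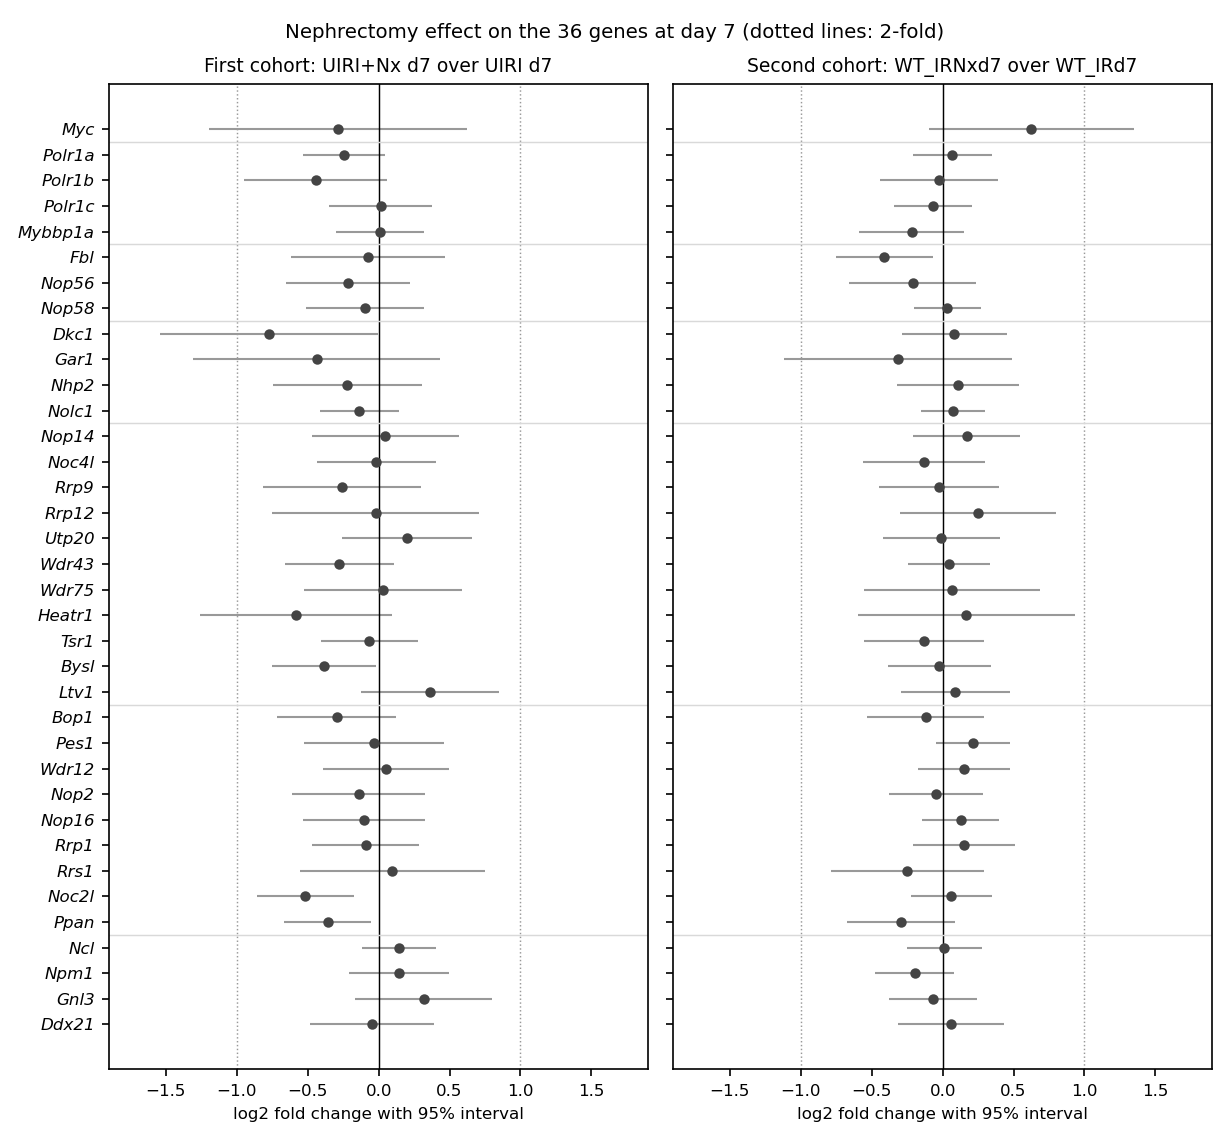
Log2 fold change of each of the 36 genes after nephrectomy at day 7 in the first cohort (left, UIRI+Nx d7 over UIRI d7, n = 6 and 6) and the second (right, WT_IRNxd7 over WT_IRd7, n = 4 and 6), in order of role; lines are 95% intervals of the edgeR fit and dotted lines mark 2-fold. No estimate passed the test, and the upper limits in the first cohort stay under the 2-fold line for all 36 genes.

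Myc itself (ENSMUSG00000022346, chromosome 15 from 61985391 to 61990374 on the plus strand of GRCm38) was higher in injured kidneys and had no call for nephrectomy. Its lowest, median and highest values were 1.87, 3.29 and 12.1 CPM in UIRI+Nx d7, 2.59, 4.43 and 12.2 CPM in UIRI d7, 3.26, 3.69 and 9.21 CPM in UIRI d3 and 0.0865, 0.53 and 0.959 CPM in Control. Every injured library of the first cohort lay above every Control library. In UIRI+Nx d7 and UIRI d7 a single library, replicate 2 and replicate 1, held the top value of the group. The fitted log2 fold change over Control was 3.12 in UIRI+Nx d7, 3.41 in UIRI d7 and 3.12 in UIRI d3 (SE 0.51 for each, edgeR adjusted p = 2.7e-05, 5.53e-06 and 2.35e-05). Myc was read shallowly in Control, with 1 to 26 counts per library. Between UIRI+Nx d7 and UIRI d7 the log2 fold change was -0.28 (SE 0.44, 95% interval -1.19 to 0.63, edgeR adjusted p = 0.786). With each library of the cohort left out in turn it ran from -0.82 to 0.12, and it was above 0 only without replicate 1 of UIRI d7.

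In the second cohort Myc had 6.43, 2.0, 3.55 and 2.87 CPM in WT_IRNxd7, against 0.936, 2.35 and 3.55 CPM in WT_IRd7, and 3.59, 6.36 and 7.99 CPM in WT_IRd3. The nephrectomy estimate was positive, 0.63 (SE 0.35, 95% interval -0.10 to 1.35, edgeR adjusted p = 0.341), with replicate 1 of WT_IRNxd7 the highest. The difference between the cohorts did not pass either (0.93, SE 0.60, adjusted p = 0.672). From day 3 to day 7 without nephrectomy Myc fell in the second cohort, with every WT_IRd7 library below every WT_IRd3 library (log2 fold change -1.34, SE 0.31, edgeR adjusted p = 0.00946). Libraries were placed in blocks by runs of the sheet and library numbers in the deposited column names, an inferred batch that the labels do not name. That call was lost with the block as a covariate (-1.06, adjusted p = 0.157) and within the single block that holds both groups (-0.99, adjusted p = 0.214, 2 against 6 libraries). In the first cohort the same contrast, UIRI d7 over UIRI d3, gave 0.29 (SE 0.44, edgeR adjusted p = 0.859). The 2 time contrasts were not tested against each other.

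**Figure D3:**
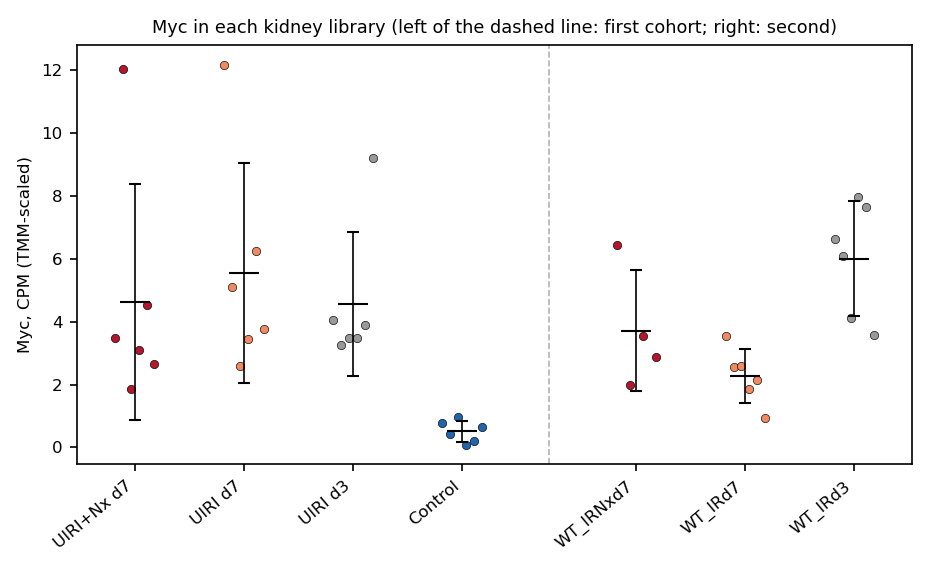
Myc in each library, in CPM (TMM-scaled, linear axis); points are libraries, the wide bar is the group mean and whiskers are 1 SD, with the first cohort left of the dashed line (n = 6 per group) and the second right of it (n = 4, 6 and 6). The 6 Control libraries stay under 1 CPM, below all 18 injured libraries of the first cohort, while the nephrectomy and non-nephrectomy groups overlap in both cohorts.

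By role, the median log2 fold changes after nephrectomy (first cohort, then second) were -0.12 and -0.05 for the 4 RNA polymerase I genes, -0.10 and -0.21 for the 3 box C/D genes and -0.33 and 0.08 for the 4 box H/ACA genes. They were -0.02 and 0.05 for the 11 small subunit factors, -0.10 and 0.06 for the 9 large subunit factors and 0.14 and -0.03 for Ncl, Npm1, Gnl3 and Ddx21. No role had a call in either cohort, and the estimates of the first cohort ran from -0.77 for Dkc1 to 0.36 for Ltv1, an export factor of the small subunit. Ncl, nucleolin, is among the most abundant proteins of the nucleolus. It had 518 ± 41.1 CPM in UIRI+Nx d7 and 469 ± 42.2 CPM in UIRI d7 (SD, n = 6 each, log2 fold change 0.14, 95% interval -0.12 to 0.40). The WT libraries had 522 ± 91.3 CPM in WT_IRNxd7 and 518 ± 38 CPM in WT_IRd7 (n = 4 and 6, log2 fold change 0.01, 95% interval -0.25 to 0.28). Npm1, nucleophosmin, a chaperone of late precursors, had 247 ± 42 CPM in UIRI+Nx d7 and 223 ± 46.1 CPM in UIRI d7 (log2 fold change 0.14, 95% interval -0.21 to 0.50). Its second-cohort means were 198 ± 33.1 CPM in WT_IRNxd7 and 227 ± 12.2 CPM in WT_IRd7 (log2 fold change -0.20, 95% interval -0.47 to 0.08). For these abundant genes the furthest ends of the intervals were -0.47 and 0.50 on the log2 scale. They bound a change in the gene's share of the library only. CPM is such a share, so a change in the amount of RNA per cell or per kidney would not show in it.

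For nephrectomy, 3.17% of all genes tested were higher and 3.46% lower in the first cohort, and 2.58% and 2.66% in the second. Apart from the snoRNA host genes of the first cohort, lists of other genes of the pathway held single or few calls. Counts this small cannot be set apart from the shares of all genes. Of 12 other RNA polymerase I factors 1 was higher in UIRI+Nx d7 than in UIRI d7, Taf1d, a part of the polymerase's selectivity factor (43.4 ± 8.07 CPM in UIRI+Nx d7 and 26 ± 6.8 CPM in UIRI d7, log2 fold change 0.74, edgeR adjusted p = 0.0315). None was called in WT_IRNxd7 against WT_IRd7 (Taf1d 0.40, adjusted p = 0.226). Of 45 other small subunit factors 1 was lower, Dhx37, an RNA helicase (-0.98, adjusted p = 0.0181). In WT_IRNxd7, Utp14a gave 0.57 (adjusted p = 0.0394) and Bud23 -0.57 (0.0362). Of 50 other large subunit factors none passed in either, with medians of -0.04 and -0.09. Of 77 ribosomal protein genes tested none was called in the first cohort (median 0.32, 69 estimates above 0), and 1, Rpl15, was lower in the second (median -0.23, 66 below 0). None passed the test of the difference between cohorts. Of 17 genes of the Myc network 1 was lower in each cohort, Mxd1, a partner of Max, in the second and Mycl in the first. Mycl is a relative of Myc and had 3.67 ± 1.46 CPM in UIRI+Nx d7 and 7.59 ± 2.87 CPM in UIRI d7 (log2 fold change -1.08, edgeR adjusted p = 0.025), and its log2 fold change was -1.35 (adjusted p = 0.0805) in the second.

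The snoRNA host genes are transcripts whose introns release small nucleolar RNAs, and their own spliced RNA is sensitive to translation. In the first cohort 4 of 9 were higher in UIRI+Nx d7 than in UIRI d7 (median 0.65, none lower), where 3.17% of all genes were higher. Zfas1 had 268 ± 110.4 CPM in UIRI+Nx d7 and 114 ± 9.72 CPM in UIRI d7 (SD, n = 6 each, log2 fold change 1.23, edgeR adjusted p = 0.000322). Gas5 had 591 ± 147 CPM in UIRI+Nx d7 and 376 ± 34 CPM in UIRI d7 (0.65, adjusted p = 0.00771). Snhg12 had 28.9 ± 10.00 CPM in UIRI+Nx d7 and 14.1 ± 4.43 CPM in UIRI d7 (1.04, adjusted p = 0.00664). In the second cohort none of the 9 passed (median 0.05), with Zfas1 at 0.25, Snhg12 at 0.15 and Gas5 at 0.21. None passed the test of the difference between cohorts (median -0.68). Of 31 Myc-linked growth and metabolism genes tested, Ahcy, which clears S-adenosylhomocysteine, was higher (0.83, adjusted p = 0.0109) and Ccnd2, cyclin D2, lower (-0.96, adjusted p = 0.0342) in UIRI+Nx d7. Slc19a1, a folate carrier, was higher in WT_IRNxd7 (0.65, adjusted p = 0.00177). Of 24 cell cycle genes 1, Top2a, was lower in UIRI+Nx d7 (-0.80, adjusted p = 0.0392). Mki67 (0.74, adjusted p = 0.0206) and Birc5 (0.58, adjusted p = 0.016) were higher in WT_IRNxd7.

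Markers of other cells did move with nephrectomy in the same libraries. Of all genes tested, 3.46% were lower and 3.17% higher in UIRI+Nx d7, and 2.66% lower and 2.58% higher in WT_IRNxd7. Of 5 T and NK cell genes tested (2 of the 7 listed were too low to test) 4 were lower in UIRI+Nx d7 and 3 in WT_IRNxd7. The summed list was at 0.869 to 7.11 CPM in UIRI+Nx d7, against 11 to 30.9 CPM in UIRI d7, and at 1.4 to 6.14 CPM in WT_IRNxd7, against 10.6 to 22.5 CPM in WT_IRd7. Of 8 injured tubule genes 3 were lower in UIRI+Nx d7, Vcam1, Cd44 and Havcr1, and 3 were lower and 1 higher in WT_IRNxd7. Havcr1, the injury molecule KIM-1, had 225 ± 111 CPM in UIRI+Nx d7 and 677 ± 259 CPM in UIRI d7 (log2 fold change -1.59, edgeR adjusted p = 0.00668). The summed injured tubule list ran from 3436 to 6081 CPM in UIRI+Nx d7 and from 4141 to 7078 CPM in UIRI d7. The summed list of 10 macrophage genes, 2 of them lower, ran from 1276 to 2364 CPM in UIRI+Nx d7 and from 1649 to 3841 CPM in UIRI d7. Calb1, a calcium buffer of the distal convoluted tubule, was higher in both cohorts (2.94 and 3.54 on the log2 scale). The part of these cell types in the values of the 36 genes was not tested.

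Part of the set was higher in injured kidneys than in Control. On day 3, 19 of the 36 genes were higher and 1 was lower in UIRI d3 than in Control (edgeR, adjusted p under 0.05), where 17.8% of all genes were higher and 14.9% lower (32.7% in all). On day 7 without nephrectomy 13 were higher and 1 lower in UIRI d7, where 21.5% of all genes were higher and 18.1% lower (39.6%). After nephrectomy 7 were higher and none lower in UIRI+Nx d7, where 17.3% were higher and 14% lower (31.3%). As a share of the 36, the higher genes in UIRI+Nx d7 were near that of all genes. Those called in either direction in UIRI+Nx d7 were below it. In UIRI d3 and UIRI d7 the share of higher genes was above that of all genes. Without replicate 4 of UIRI d7 the calls were 8 in UIRI+Nx d7, 10 in UIRI d7 and 23 in UIRI d3. With the library block as a covariate UIRI+Nx d7 had 11 calls, 10 higher and 1, Utp20, lower. DESeq2 called 6 higher and 1, Utp20, lower in that comparison. The 3 comparisons share the Control libraries. Their median log2 fold changes over the 36 were 0.29 for UIRI+Nx d7, 0.42 for UIRI d7 and 0.63 for UIRI d3, beside 0.02, 0.04 and 0.00 over all genes. The 7 genes higher in UIRI+Nx d7 were Myc, Mybbp1a, Tsr1, Ppan, Ncl, Npm1 and Ddx21, and each was higher in UIRI d7 and UIRI d3 as well. The 7 calls beside the 13 are no test of nephrectomy, for which the direct comparison above had no call.

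**Figure D4:**
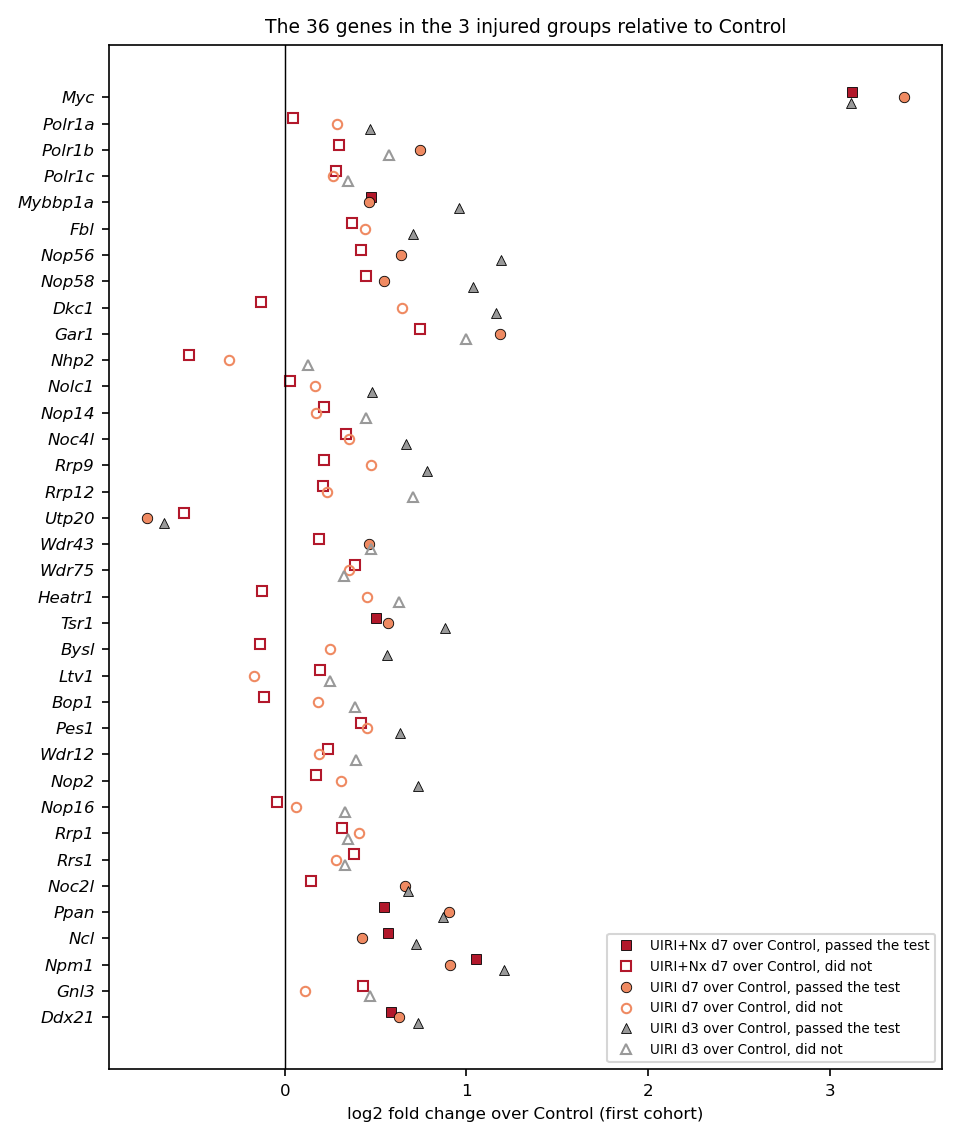
Log2 fold change of each gene over Control in UIRI+Nx d7 (squares), UIRI d7 (circles) and UIRI d3 (triangles), n = 6 per group; filled symbols passed the edgeR test at an adjusted p under 0.05 and open symbols did not. Myc lies above 3 in all 3 groups, Utp20 lies below 0 in all 3, and most other genes lie between 0 and 1.

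Of the RNA polymerase I genes, Mybbp1a, a nucleolar protein that acts in ribosomal RNA synthesis, had 55.5 ± 8.46 CPM in UIRI+Nx d7, 55.1 ± 9.95 CPM in UIRI d7, 77.7 ± 14.4 CPM in UIRI d3 and 39.98 ± 5.25 CPM in Control (SD, n = 6 each). Its log2 fold changes over Control were 0.47, 0.46 and 0.96 (edgeR adjusted p = 0.0182, 0.0168 and 1.74e-05). Polr1a was higher in UIRI d3 (0.47, adjusted p = 0.0102) and stood at 0.29 in UIRI d7. Polr1b was higher in UIRI d7 (0.74, adjusted p = 0.0172, and 0.0825 without replicate 4 of UIRI d7). Polr1c, a subunit shared with RNA polymerase III, was called in none (0.28 in UIRI+Nx d7, 0.27 in UIRI d7 and 0.35 in UIRI d3). The scaffold proteins of the box C/D particles, Nop56 and Nop58, were higher in both groups without nephrectomy. Nop56 had 33.5 ± 7.62 CPM in UIRI+Nx d7, 38.9 ± 10.6 CPM in UIRI d7, 56.9 ± 12.3 CPM in UIRI d3 and 24.9 ± 7.07 CPM in Control, with log2 fold changes of 0.64 in UIRI d7 and 1.19 in UIRI d3. Nop58 gave 0.54 in UIRI d7 and 1.04 in UIRI d3. Fbl passed in UIRI d3 (0.71, adjusted p = 0.0403). Of the box H/ACA genes, Dkc1 (1.16, adjusted p = 0.0177) and Nolc1, a chaperone of the particles (0.48), passed in UIRI d3. Gar1 passed in UIRI d7 (1.18, adjusted p = 0.0291). Nhp2 passed in none, and its means at day 7 were below Control. It had 50.3 ± 15.9 CPM in UIRI+Nx d7, 58.8 ± 32.5 CPM in UIRI d7, 79.4 ± 16.5 CPM in UIRI d3 and 72.5 ± 18.2 CPM in Control. Of 8 alternative fits 1 called Nhp2 lower in UIRI+Nx d7 than in Control.

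Among the 11 small subunit factors, Tsr1, a late assembly factor, had 32.2 ± 5.29 CPM in UIRI+Nx d7, 33.7 ± 8.19 CPM in UIRI d7, 41.9 ± 5.73 CPM in UIRI d3 and 22.7 ± 3.63 CPM in Control, which gave log2 fold changes over Control of 0.50, 0.57 and 0.88 (edgeR adjusted p = 0.0214, 0.00744 and 0.000147). Noc4l (0.67), Rrp9 (0.78) and Bysl (0.56) were higher in UIRI d3, and Wdr43 in UIRI d7 (0.47, adjusted p = 0.0489). Utp20, a large protein of the early particle, was the exception. Its lowest, median and highest values were 16.6, 31 and 49.2 CPM in UIRI+Nx d7, 19.6, 27.8 and 37.1 CPM in UIRI d7, 22.3, 28.5 and 39.97 CPM in UIRI d3 and 27.9, 48.8 and 62.9 CPM in Control. It was lower than Control in UIRI d7 (-0.76, adjusted p = 0.00781) and UIRI d3 (-0.67, adjusted p = 0.022), with overlapping groups, and did not pass in UIRI+Nx d7 (-0.56, adjusted p = 0.058). Nop14, Rrp12, Wdr75, Heatr1 and Ltv1 passed in no group, with log2 fold changes from -0.17 (Ltv1 in UIRI d7) to 0.70 (Rrp12 in UIRI d3).

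Of the 9 large subunit factors, Ppan had no overlap with Control in any group. It had 17, 18.4 and 22.3 CPM in UIRI+Nx d7, 19.3, 24.9 and 29.1 CPM in UIRI d7, 20.9, 24.2 and 25.6 CPM in UIRI d3 and 9.92, 12.9 and 16.5 CPM in Control. Its log2 fold changes over Control were 0.55, 0.91 and 0.87 (SE 0.15 each, edgeR adjusted p = 0.00566, 1.95e-05 and 4.38e-05). Noc2l was higher in UIRI d7 (0.66) and UIRI d3 (0.68), without overlap with Control, and stood at 0.15 (adjusted p = 0.561) in UIRI+Nx d7. Pes1 (0.63, adjusted p = 0.0449) and Nop2, a methyltransferase of ribosomal RNA (0.73, adjusted p = 0.014), were higher in UIRI d3. Bop1 and Wdr12, the partners of Pes1 in the PeBoW complex, and Nop16, Rrp1 and Rrs1 passed in none, with log2 fold changes from -0.11 (Bop1 in UIRI+Nx d7) to 0.41 (Rrp1 in UIRI d7). Of the nucleolar proteins with several tasks, Npm1 had 247 ± 42 CPM in UIRI+Nx d7, 223 ± 46.1 CPM in UIRI d7, 275 ± 56.5 CPM in UIRI d3 and 119 ± 16.4 CPM in Control. Ncl had 518 ± 41.1 CPM in UIRI+Nx d7, 469 ± 42.2 CPM in UIRI d7, 575 ± 73.8 CPM in UIRI d3 and 349 ± 38.8 CPM in Control. For both there was no overlap with Control in any injured group. The log2 fold changes of Npm1 were 1.05, 0.91 and 1.21, and those of Ncl 0.57, 0.43 and 0.72, in UIRI+Nx d7, UIRI d7 and UIRI d3. Ddx21, an RNA helicase of ribosomal RNA transcription, gave 0.58, 0.63 and 0.74, and Gnl3, nucleostemin, was called in none (0.43, 0.11 and 0.47).

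All libraries of the injured group lay above all Control libraries for 4 of the 36 genes in UIRI+Nx d7 (Myc, Ppan, Ncl and Npm1), for 5 in UIRI d7 (also Noc2l) and for 12 in UIRI d3, where 9.74%, 10.9% and 10.3% of all genes did. In UIRI+Nx d7 and UIRI d7 these counts were near the share of all genes. None of the 36 lay wholly below Control, where 7.38%, 9.61% and 8.08% of all genes did. With each library left out in turn, 5 of the 7 calls in UIRI+Nx d7, 8 of the 14 in UIRI d7 and 15 of the 20 in UIRI d3 held in every fit. Those lost in some fits were Tsr1 and Ddx21 in UIRI+Nx d7, Polr1b, Nop56, Nop58, Gar1, Wdr43 and Ddx21 in UIRI d7, and Fbl, Dkc1, Rrp9, Utp20 and Pes1 in UIRI d3. Wdr43 held in 7 of 24 fits, Pes1 in 12 and Fbl in 15. Dkc1 in UIRI d3 was lost without replicate 2 of that group alone (adjusted p = 0.0886). Nop56 and Ddx21 in UIRI d7 were lost without replicate 4 of UIRI d7 or replicate 4 of Control (adjusted p up to 0.0653 and 0.106). Within blocks there were 7 calls in block 1a and 0 in block 2b for UIRI+Nx d7, and 2 in block 1a for UIRI d7. For UIRI d3 there were 20 in block 1a and 8 in block 2b. These fits held few libraries each, and their counts are given without the share of all genes called in them. The 7 of block 1a were not the same genes as the 7 of the whole cohort, since they held Fbl and Rrs1. Cell type markers differed in the same comparisons. In UIRI d3 all 24 cell cycle genes (median 3.60), 9 of 10 macrophage and 7 of 8 fibroblast genes were higher than in Control, and 9 of 10 proximal tubule genes were lower. The summed macrophage list was 1276 to 2364 CPM in UIRI+Nx d7, 1649 to 3841 CPM in UIRI d7, 515 to 1135 CPM in UIRI d3 and 192 to 402 CPM in Control. The part of these cells in the higher values of the 36 genes was not tested.

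The lists are set beside the shares of all genes called higher (17.3% in UIRI+Nx d7, 21.5% in UIRI d7 and 17.8% in UIRI d3). The counts of ribosomal protein and snoRNA host genes were above this background. Other large subunit factors lay near it in both day 7 groups and above it in UIRI d3. Other small subunit factors lay below it in both day 7 groups and near it in UIRI d3. Other RNA polymerase I factors lay below it in each group. The Myc network lay near or above it, and growth and metabolism genes above it. Of 77 ribosomal protein genes 48 were higher and 1 lower in UIRI+Nx d7 than in Control (median 0.75), 29 and 1 in UIRI d7 (0.47) and 26 and 1 in UIRI d3 (0.51). Of 50 other large subunit factors 8, 10 and 13 were higher in UIRI+Nx d7, UIRI d7 and UIRI d3 and none lower. Of 45 other small subunit factors 2, 7 and 9 were higher, with 1 lower in UIRI d7. Of 12 other RNA polymerase I factors 1 was higher in each group. The snoRNA host genes were higher at 7 of 9 in UIRI+Nx d7 (median 1.27) and at 4 of 9 in UIRI d7 and in UIRI d3 (0.67 and 0.59). Of 17 Myc network genes 3 were higher and 2 lower in UIRI+Nx d7, 4 and 3 in UIRI d7 and 4 and 2 in UIRI d3. Of 31 growth and metabolism genes 7 were higher and 10 lower, 10 and 15, and 10 and 8, in the same order, so that this list went both ways.

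The course from day 3 to day 7 was read within each cohort. In the first cohort none of the 36 genes passed in UIRI d7 against UIRI d3 by edgeR (2.6% of all genes did, 1.24% higher and 1.36% lower), with a median log2 fold change of -0.27 and 30 estimates below 0. By unadjusted p 5 genes were under 0.05, each lower, and DESeq2 called 1, Mybbp1a. Without replicate 4 of UIRI d7 edgeR called 2, Mybbp1a and Nhp2. In UIRI+Nx d7 against UIRI d3, 3 genes were lower and none higher, where 2.06% of all genes were higher and 3.06% lower (5.13% in all): Bysl (-0.70, adjusted p = 0.0184), Nop56 (-0.77, adjusted p = 0.0337) and Dkc1 (-1.29, adjusted p = 0.0433). The median was -0.33, and the count ran from 0 without replicate 3 of UIRI+Nx d7 to 6 without replicate 4 of UIRI d7. It was 1, Bysl, without replicate 1, 2 or 4 of UIRI d3 and 5 without replicate 3 of UIRI d3. DESeq2 called 7 genes in this comparison, and edgeR 8 with the library block as a covariate. Bysl had 12.1, 15.4 and 20.4 CPM in UIRI+Nx d7, against 22.2, 26 and 31.7 CPM in UIRI d3, with no overlap. Polr1a and Noc2l also lay wholly below UIRI d3, where 1.21% of all genes lay wholly above and 2.24% wholly below. In UIRI d7 none of the 36 was free of overlap with UIRI d3, where 1% lay above and 1.38% below. Of 24 cell cycle genes 20 were lower in UIRI+Nx d7 and 17 in UIRI d7 than in UIRI d3. Within block 1a and block 2b the count of the 36 genes in UIRI+Nx d7 against UIRI d3 was 5 and 0. In these contrasts UIRI+Nx d7 and UIRI d7 differ from UIRI d3 in an operation as well as in days.

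In the second cohort 4 genes were lower and none higher in WT_IRd7 than in WT_IRd3, where 4.51% of all genes were higher and 4.05% lower (8.56% in all): Myc, Nop58, Nolc1 and Nop2. Nop58 had 63, 68 and 74.5 CPM in WT_IRd7, against 86.6, 104 and 105 CPM in WT_IRd3, with no overlap (log2 fold change -0.54, SE 0.10, edgeR adjusted p = 0.00198). Nolc1 had 38.2, 39.3 and 42 CPM in WT_IRd7, against 47.9, 50.7 and 55.7 CPM in WT_IRd3, again apart, where 2.86% of all genes lay wholly above and 2.6% wholly below (-0.36, adjusted p = 0.0223). Nop2 had 29, 32.3 and 38.4 CPM in WT_IRd7, against 29, 47.9 and 55.8 CPM in WT_IRd3, with overlap (-0.46, adjusted p = 0.0467). After nephrectomy 1 gene, Nop58, was lower in WT_IRNxd7 than in WT_IRd3, where 2.97% of all genes were higher and 3.04% lower (6.02% in all). It had 72, 73.9, 57.9 and 79.1 CPM in WT_IRNxd7, and with Fbl and Nolc1 it lay wholly below WT_IRd3, as did 3.74% of all genes (log2 fold change -0.50, SE 0.11, edgeR adjusted p = 0.00975). Nop58 was thus lower on day 7 than on day 3 with and without nephrectomy in this cohort, and WT_IRNxd7 and WT_IRd7 overlapped for it (0.03, 95% interval -0.20 to 0.27). Both contrasts share the 6 WT_IRd3 libraries, all of block 2a, so they are not independent of each other. With the library block as a covariate 1 of the 4 calls in WT_IRd7, Nop58, was left. Without replicate 1 or replicate 3 of WT_IRd3 the calls left were Myc and Nop58, and within block 2a neither day 7 group had a call. WT_IRNxd7 against WT_IRd3 gained a second call without replicate 3 of WT_IRNxd7, replicate 3 of WT_IRd7 or replicate 4 of WT_IRd3.

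Within groups, single libraries stood at the top or the bottom for many of the genes at once. These counts cover the 36 genes alone, so they do not tell whether other genes of the same libraries behaved alike. Replicate 4 of UIRI d7 was the highest of its 6 libraries for 21 of the 36 genes, among them Dkc1, Nop14, Rrp12, Wdr43 and Ddx21, and the lowest for 6, Polr1c, Fbl, Gar1, Wdr75, Rrs1 and Gnl3. Replicate 2 of UIRI d3 was the highest for 15 and the lowest for 6. Replicate 6 of WT_IRd7 was the highest for 18 and the lowest for 7, and replicate 6 of WT_IRd3 the highest for 15 and the lowest for 5. Replicate 4 of WT_IRNxd7 was the highest of 4 libraries for 22 genes and replicate 3 of that group the lowest for 16. Gar1, Wdr75 and Rrs1 were at the bottom of the group in replicate 4 of UIRI d7, replicate 2 of UIRI d3 and replicate 6 of WT_IRd3 alike, in the libraries where many others were at the top. Each library named here as highest for many genes also had the highest summed macrophage level of its group. That level was 3841 CPM in replicate 4 of UIRI d7 and 1135 CPM in replicate 2 of UIRI d3. It was 3831 CPM in replicate 6 of WT_IRd7, 1490 CPM in replicate 6 of WT_IRd3 and 2353 CPM in replicate 4 of WT_IRNxd7. Replicate 3 of WT_IRNxd7, with 2168 CPM, was not the lowest of its group for macrophages. What sets these libraries apart was not tested. Without replicate 4 of UIRI d7 none of the 36 genes was called for nephrectomy either.

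**Figure D5:**
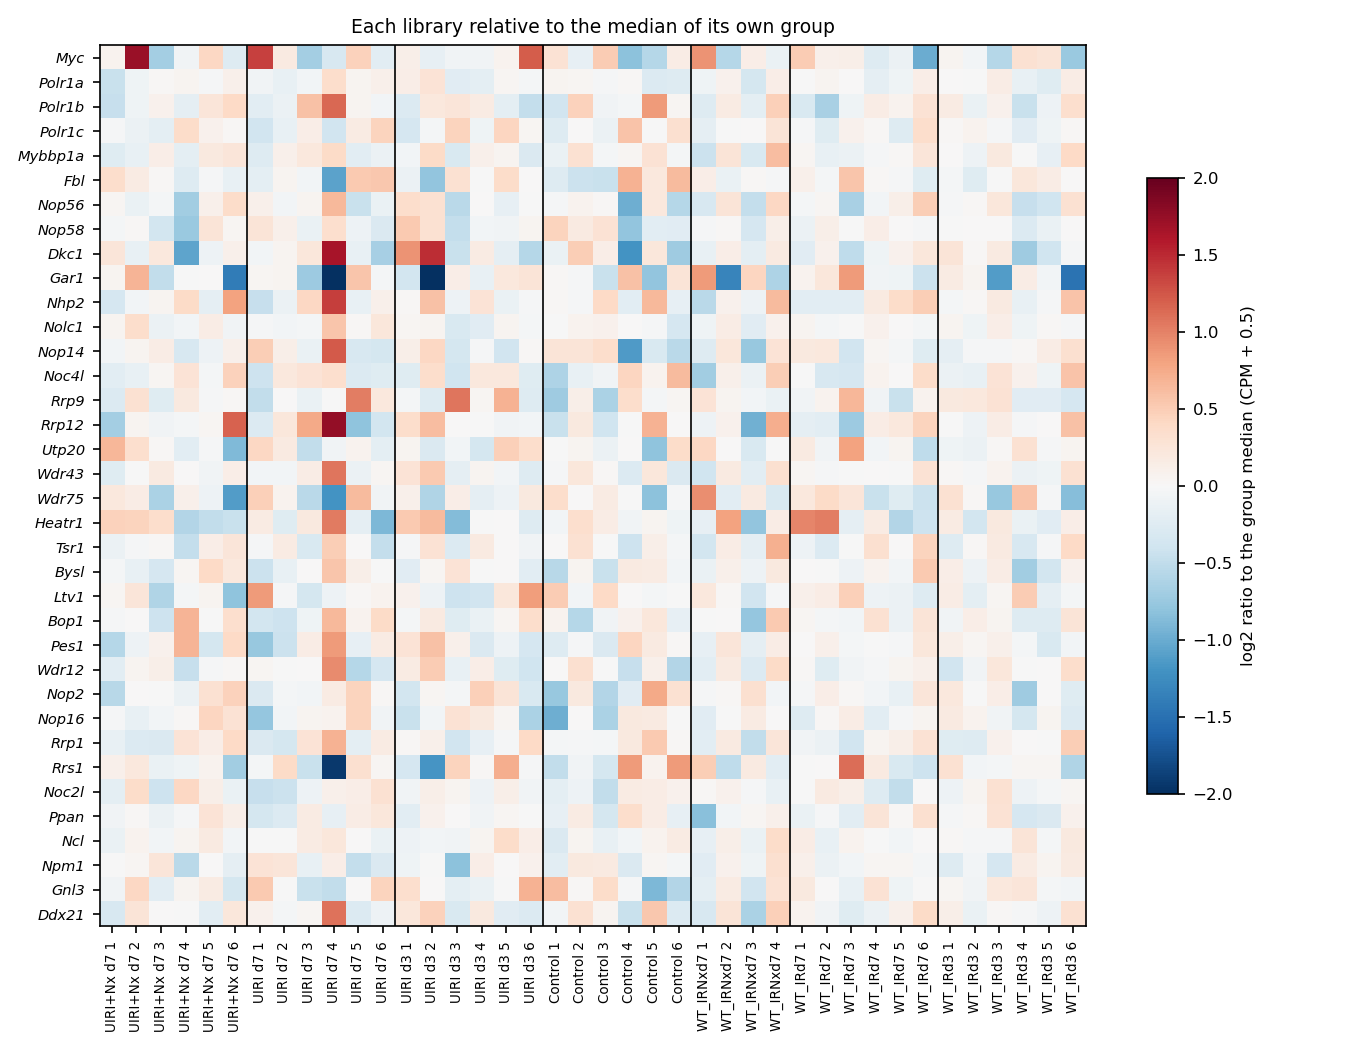
Each of the 36 genes (rows, by role) in each of the 40 grouped libraries (columns, groups parted by lines), as the log2 ratio of CPM + 0.5 to the median of the library's own group; red is above the median, blue below, and the scale stops at 2 in both directions. The column of UIRI d7 replicate 4 shows a mix of red (Dkc1, Rrp12) and blue (Gar1, Rrs1), and replicate 2 of UIRI d3 shows a like mix.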

How the data were processed

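RNA from kidney pole sections was sequenced from the 3′ end (QuantSeq FWD, per the labels' protocols), and the authors deposited raw counts per gene for 41 libraries in a single table of 48795 genes. Per the submitters' processing notes the first cohort was processed with Trimmomatic, STAR and HTSeq 0.6.1 on GRCm38 and the second with STAR 2.7.11b on GRCm39; the counter of the second cohort, the annotation and the strand setting are not stated in these sources. Symbols matched 48349 identifiers. Groups came from the labels for 40 libraries. The other library, titled UNDETERMINED and without a group, entered no comparison.

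Each cohort was fitted alone, all of its groups together, with edgeR 4.0.16 in R 4.3.3 (filterByExpr, TMM scaling, quasi-likelihood test), and p-values were adjusted by Benjamini-Hochberg over every gene tested (threshold 0.05); a joint fit tested the difference between cohorts. Standard errors and 95% intervals come from the same fit, and code was tested on simulated data. Alternatives were DESeq2 1.42.0 with its own size factors, no filter on low counts, only the groups compared, each library left out, and the replicate number or library block as covariate. All 36 genes are named, and for Myc and the genes with the smallest adjusted p for nephrectomy each library's value (groups of 4) or the lowest, median and highest (groups of 6) are given. The genes and lists were chosen with earlier results of these data known. Libraries of a group differed by more than sampling noise. Depth ran from 5090418 to 33362940 counts per library, and low counts limit the precision for Myc in Control.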

Additional observations from a re-analysis of the deposited data

Results flagged for a closer look

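Among the 252 sets of a gene and a group, 21 held a library whose gap to the nearest other exceeded Dixon's 95% critical value, where chance gives about 1 in 20. Replicate 4 of UIRI d7 held 5 of them, with Dkc1 at 322 CPM, Nhp2 at 122 CPM, Wdr43 at 169 CPM, Wdr12 at 57.5 CPM and Ddx21 at 200 CPM, each the highest of the group. In the same group Rrp9 was 18.5 CPM in replicate 5 and Ltv1 was 20.3 CPM in replicate 1.

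In UIRI+Nx d7, Myc was 12.1 CPM in replicate 2 and Rrp12 was 22.0 CPM in replicate 6. In UIRI d3, Myc was 9.21 CPM in replicate 6 and Npm1 was 165 CPM in replicate 3. In Control, Nolc1 was 31.2 CPM in replicate 6 and Rrp1 was 64.7 CPM in replicate 5.

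In WT_IRd7, replicate 3 stood apart for Fbl (18.7 CPM), Rrp9 (16.4 CPM) and Rrs1 (110 CPM), and replicate 6 for Wdr43 (110 CPM) and Bysl (28.5 CPM). In WT_IRd3, Rrp12 was 19.4 CPM in replicate 6, Utp20 was 31.8 CPM in replicate 4 and Noc2l was 55.3 CPM in replicate 3.

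The library that the labels put in no group is titled UNDETERMINED, so its values cannot be read as those of a kidney of any condition. It lay above every Control library for 27 of the 36 genes, on CPM of the plain library total. Its Myc level was 4.58 CPM, from 57 counts, and the 6 Control libraries ran from 0.0742 to 0.845 CPM on that scale.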

How the results depend on the processing

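No value called in the fits as reported changed sign, and no alternative called a value of the opposite sign. Within single blocks, genes called in block 1a alone had the other sign, uncalled, in block 2b (Fbl and Rrs1 for UIRI+Nx d7 against Control, Rrp12 for UIRI+Nx d7 against UIRI d3). For nephrectomy the count of genes called was 0 in the first cohort and 1 with DESeq2, and 0 to 1 with a library left out; in the second cohort and for the difference between cohorts it was 0 in every fit with a library left out. DESeq2 called 1 gene for UIRI d7 against UIRI d3 (0 by edgeR), 7 for UIRI+Nx d7 against UIRI d3 (3 by edgeR) and 3 for WT_IRNxd7 against WT_IRd3 (1 by edgeR). With the library block as covariate the count was 11 for UIRI+Nx d7 against Control (7 without), 8 for UIRI+Nx d7 against UIRI d3 and 1 for WT_IRd7 against WT_IRd3 (4 without). Within single blocks it was 8 for UIRI d3 against Control in block 2b (20 in all), 2 for UIRI d7 against Control in block 1a (14 in all), 0 for UIRI+Nx d7 against Control in block 2b, 5 and 0 for UIRI+Nx d7 against UIRI d3 in blocks 1a and 2b, and 0 for both day 7 groups against WT_IRd3 in block 2a, with fewer libraries in each fit; the cause of the other changes was not tested. With each library left out the count ran from 5 to 8 for UIRI+Nx d7, 10 to 14 for UIRI d7 and 17 to 23 for UIRI d3 against Control, 0 to 2 for UIRI d7 and 0 to 6 for UIRI+Nx d7 against UIRI d3, and 2 to 5 for WT_IRd7 and 1 to 2 for WT_IRNxd7 against WT_IRd3.

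Replicate numbers are shared between groups, and the deviations of same-numbered libraries had correlations from -0.480 to 0.518. For replicate 1 of the first cohort all were positive (0.0348 to 0.518), and those libraries all lie in block 1a. For the other numbers of that cohort the signs were mixed. The fits as reported assumed no pairing. With the replicate block the count was 0 for nephrectomy in both cohorts, 7, 12 and 20 for UIRI+Nx d7, UIRI d7 and UIRI d3 against Control, 2 for UIRI+Nx d7 and 0 for UIRI d7 against UIRI d3, and 3 for WT_IRd7 and 1 for WT_IRNxd7 against WT_IRd3. Of 10908 alternative values for single genes, 10253 kept direction and side of the threshold, 389 changed sign with no call in either fit (Myc for nephrectomy among them), 178 lost the call and 88 gained it. Depth limits Myc in Control, at 1 to 26 counts.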
